A study of Mus musculus with 6 samples.

Results

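A set of 10 genes of matrix remodelling was followed in sorted macrophages of the mouse brain: 4 matrix metalloproteases, 2 of their inhibitors and 4 proteins that are part of the matrix or bind to it. They were taken by gene symbol from the 35598 gene identifiers of each library table, using the GENCODE M21 annotation, and all 10 were found. They are Mmp2, Mmp12, Mmp14, Mmp19, Timp1, Timp2, Fn1, Spp1, Tgfbi and Thbs1. The macrophages were central nervous system-associated macrophages (CAMs), which line the brain's borders, sorted as CD11b, CD45 and CD206 positive and CD3 negative cells from whole brains of male C57BL/6 mice. The 2 groups were aged mice of 18 months (3 libraries) and young mice of 2 months (3 libraries), and the comparison asks how the transcripts of these cells differ with age. No genetic change or treatment is given in the labels, and nothing in them ties a library to an animal. P-values therefore measure spread among libraries, part of which may be technical.

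The extracellular matrix of the brain's borders is built and trimmed by a small set of secreted proteins. Matrix metalloproteases are zinc enzymes that cut matrix proteins, and the Timp proteins bind their active sites and block them. Macrophages are known both as a source of these enzymes and inhibitors and as a source of proteins such as fibronectin and osteopontin, to which other cells attach through integrins. A cell's balance of protease and inhibitor transcripts says nothing by itself about enzyme activity, because most of these proteases are made as inactive precursors.

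The aged libraries held 30596574, 32902652 and 30044365 estimated read counts and the young libraries 33306121, 26605079 and 28302394. A count of 3 in a library, used here as the floor, corresponded to 0.0777 to 0.112 CPM (counts scaled to library size). Across genes, log2 CPM correlated at 0.589 to 0.688 within an age and at 0.570 to 0.659 between ages, and replicate spread was wide for genes of low and middle level. Markers of the sorted cells were present in all 6 libraries. Mrc1, which encodes CD206, was at 1182 to 2345 CPM in aged libraries and 2674 to 2940 CPM in young ones. The summed level of 12 border macrophage markers was lower in every aged library (8298 to 16669 CPM) than in any young one (24191 to 27750 CPM), and the summed level of 10 microglia markers was higher (9482 to 15680 CPM in aged, 4876 to 7565 CPM in young). Aged replicate 3 stood apart in its neutrophil markers, which summed to 3.71 CPM there, against 7968 CPM or more in every other library, and in its red cell markers, at 85.8 CPM against 9075 CPM or more. Choroid plexus epithelium markers summed to 7510 CPM in aged replicate 3 and 10714 CPM in young replicate 3, against 491 to 1315 CPM in the other libraries. The sums of red cell markers and of neuron markers were lower in every aged library than in any young one. In sorted bulk samples, a change in the share of a cell type and a change in RNA per cell cannot be told apart.

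Timp2 and Tgfbi carried most of the signal, 4 more were measurable with wide scatter, and 4 were too low to be tested. On the deposited TPM, a level scaled for transcript length and library size, Timp2 averaged 145 ± 92.1 in aged and 38.8 ± 7.28 in young libraries, and Tgfbi 48.7 ± 17.9 and 53.6 ± 5.26 (SD, n = 3 each). Next came Spp1, at 19.3 ± 10.9 TPM in aged and 14.0 ± 17.5 TPM in young libraries. Fn1 averaged 5.19 ± 4.60 TPM in aged and 0.433 ± 0.335 TPM in young libraries, and Mmp2 3.72 ± 4.62 and 1.16 ± 1.33 TPM. Mmp12 and Mmp14 averaged 3.26 ± 5.42 and 1.87 ± 2.78 TPM in aged libraries, against 0.00767 ± 0.00802 and 0.146 ± 0.222 TPM in young ones. Thbs1 and Mmp19 did not exceed 0.416 TPM in any library, and Timp1 was at 0. Fn1, Mmp2, Mmp12 and Mmp14 did not differ from their neighbours in this order beyond their SDs in the aged libraries.

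**Figure D1:**
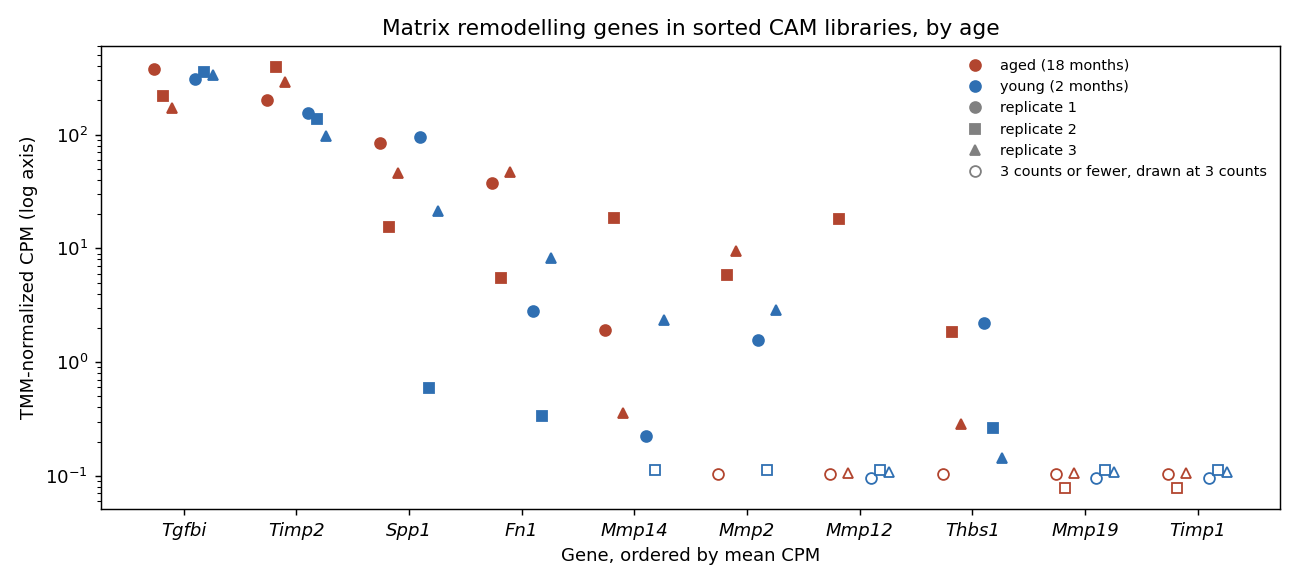
Level of each gene in each library as TMM-normalized CPM on a log axis, with aged libraries left of young ones and 1 marker shape per replicate number; open markers have 3 counts or fewer and are drawn at the level of 3 counts. Timp2 is the 1 gene whose aged libraries (200 to 394 CPM) all lie above its young ones (97.6 to 155 CPM), and Mmp12 rises above its floor in aged replicate 2 alone (18.3 CPM).

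After the filter on low counts 6 of the 10 genes were tested, and 0 were called higher or lower with age by edgeR's quasi-likelihood test at an adjusted p under 0.05. Over all 10661 genes tested, 0.00938% were called higher and 0.0% lower. At an unadjusted p under 0.05, 1 of the 6 (Timp2) was higher and 0 were lower, against 3.63% higher and 2.04% lower over all genes tested. The median fitted log2 fold change of the 6 tested genes was 1.48, against -0.02 over all genes tested. Of the 6, 5 were above 0 and 1 below, and the share of all genes above 0 was not counted. Those above 0 include Mmp2 (SE 2.28), Mmp14 (SE 2.40) and Spp1 (SE 1.26), so these values do not show a rise of the set. The 4 that were not tested, Mmp12, Mmp19, Timp1 and Thbs1, are given below by their counts. The DESeq2 Wald test, which called 1.06% of these genes higher and 0.385% lower, and limma-voom, which called 0.0%, also called 0 of the 6.

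Timp2 was the more abundant of the 2 inhibitors. It encodes a secreted inhibitor that blocks many metalloproteases and also joins Mmp14 at the cell surface in the complex that activates the precursor of Mmp2. Its level was 200, 394 and 291 CPM in the aged libraries, against 155, 138 and 97.6 CPM in the young ones. Every aged library was above every young one, with aged replicate 2 highest, and 7.54% of all genes tested (11.2% of the 2189 that averaged 50 CPM or more) separated the same way. The fitted log2 fold change was 1.18 (SE 0.37, unadjusted p = 0.0107), which did not pass over all genes (edgeR adjusted p = 0.654). Leaving out single libraries gave log2 fold changes of 0.92 to 1.40. The gene (ENSMUSG00000017466.9) lies on the minus strand of mm10 chromosome 11, from 118301069 to 118355740, and overlaps Cep295nl on the same strand, which had 0 counts in 5 libraries and 115 in aged replicate 3.

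The higher Timp2 level of aged libraries stood beside a higher level of microglia markers. Expressed as a percent of the summed microglia markers of the same library, Timp2 was at 2.11, 2.51 and 2.24% in aged libraries, against 2.42, 2.84 and 1.29% in young ones. The groups overlapped on this ratio, which was chosen after its values were seen, and their means were 2.29 ± 0.206% in aged and 2.18 ± 0.800% in young libraries (SD, n = 3 each). Of the 10 microglia markers, 7 were higher in every aged library than in any young one, against 7.54% of all genes tested. Defining markers were present at both ages: P2ry12 was at 1513 to 3322 CPM in aged and 833 to 1321 CPM in young libraries. Astrocyte and oligodendrocyte markers also summed higher in every aged library: 6 astrocyte markers summed to 66.4 to 251 CPM in aged and 47.4 to 57.5 CPM in young libraries, and 6 oligodendrocyte markers to 203 to 426 CPM and 155 to 184 CPM. In both lists 0 single markers were higher in every aged library, and none was at 0 in all libraries. The part of these cell types in the Timp2 difference was not tested.

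**Figure D2:**
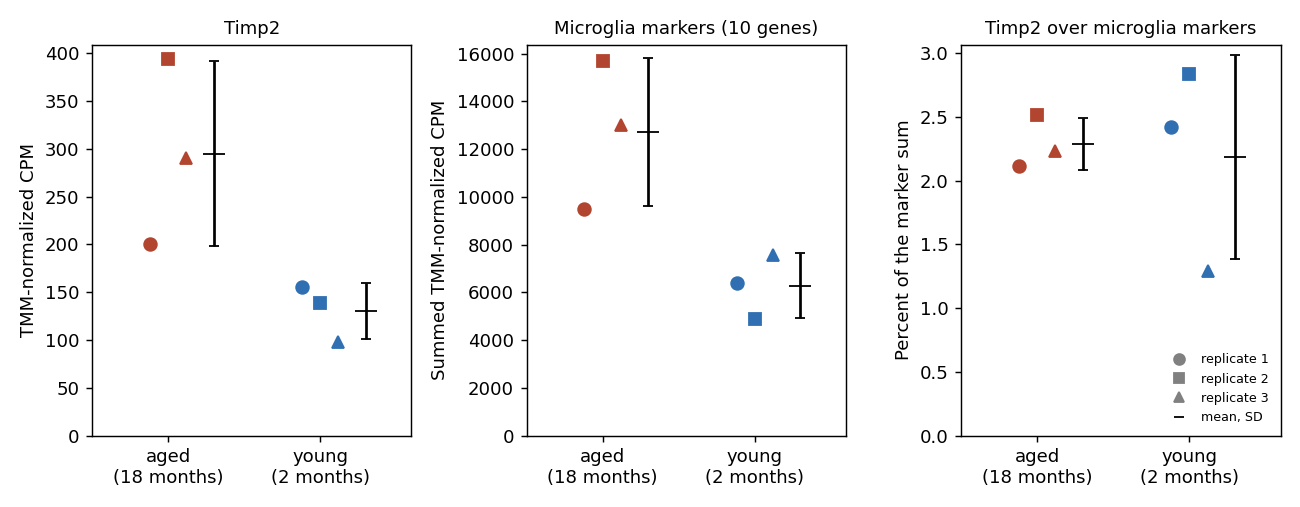
Timp2 as TMM-normalized CPM (left), the summed CPM of 10 microglia markers (middle) and Timp2 as a percent of that sum (right), in aged and young libraries, with the mean and SD beside the points (n = 3 each). Aged and young libraries separate on both levels and overlap on the ratio, at 2.11 to 2.51% and 1.29 to 2.84%.

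The deposited mean transcript length of Timp2 also separated the ages. The tables give each gene the mean length of its transcripts, weighted by their abundance: TPM equalled counts over this effective length, within 1%, for 100.0% of genes over 1 TPM in every library. GENCODE M21 lists 2 Timp2 transcripts, of 3709 bases (protein coding) and 718 bases. The mean length thus fixes the share of each if the authors' transcript set was the same. For genes at 0 counts the deposited length equalled the mean of the M21 transcripts, within 1 base, in 97.1% to 97.2% of cases. The mean length was 1447, 1269 and 1298 bases in aged libraries, against 1640, 1697 and 1560 bases in young ones. The share on the longer transcript was thus 24.4, 18.4 and 19.4% in aged libraries, against 30.8, 32.7 and 28.2% in young ones, lower in every aged library (20.7 ± 3.19% and 30.6 ± 2.30%, SD, n = 3 each; two-sided exact permutation p = 0.1, the smallest this design allows). Both transcripts stood higher with age: the shorter averaged 117 ± 77.0 TPM in aged and 26.9 ± 4.52 TPM in young libraries, and the longer 28.5 ± 15.1 and 11.9 ± 2.85 TPM. The log2 ratio of mean Timp2 levels, aged over young, was 1.90 on TPM and 1.18 on CPM. The same ratio was -0.14 and -0.39 for Tgfbi and 3.58 and 2.99 for Fn1. It was also higher on TPM for Mmp14, Spp1 and Thbs1, and lower on TPM for Mmp2 (1.68 and 1.78). The mean length of Tgfbi was 2707 to 2730 bases in aged and 2718 to 2728 bases in young libraries. Over all genes, too, the median log2 fold change was higher on log2(TPM + 1) (0.22) than on counts (-0.02). The part of mean length in the Timp2 gap between TPM and CPM was not tested. The comparison of mean lengths and transcript shares was chosen after the values were seen. The spread of reads along the transcripts, which can move such shares, was not examined. How many other genes separated the ages in mean length was not counted, so the difference is not shown to be particular to Timp2.

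**Figure D3:**
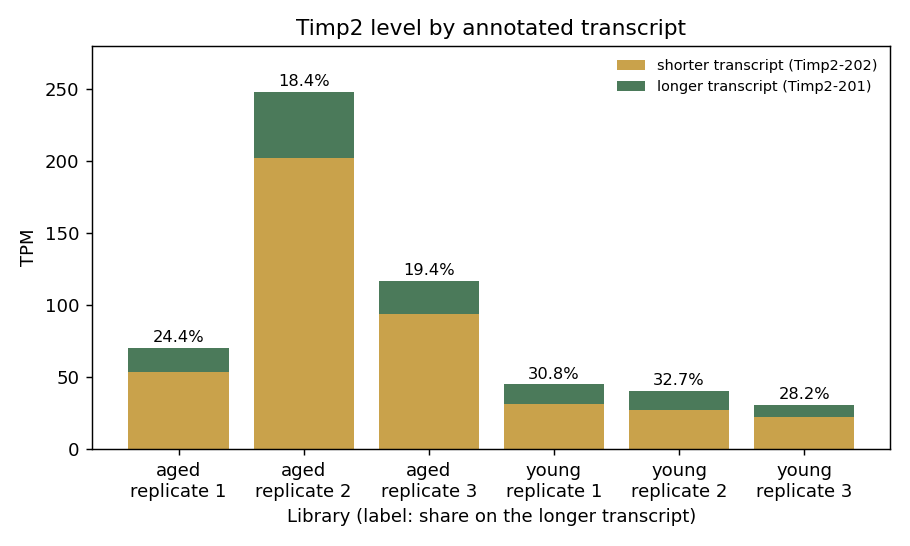
Timp2 in TPM in each library, aged libraries left of young ones, split between the shorter (718 bases) and the longer (3709 bases) annotated transcript; the label over each bar is the share on the longer one. The share was 18.4 to 24.4% in aged libraries and 28.2 to 32.7% in young ones.

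Timp1, the inhibitor that many tissues induce during injury, had 0 counts in each of the 6 libraries. A count of 0 allows a level of up to 0.112 CPM in the library with the highest floor, for counting error only. Timp1 lies on mm10 chromosome X from 20870166 to 20874735, inside the span of Syn1 on the opposite strand, and Syn1 had at most 2 counts in a library. No difference with age was detectable for Timp1 at this depth.

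The proteases were low and uneven. Mmp14, which is anchored in the cell membrane and cuts collagen and other matrix proteins at the cell surface, was at 1.91, 18.5 and 0.353 CPM in aged libraries, against 0.224, 0 and 2.36 CPM in young ones. The groups overlapped, and 83.8% of all Mmp14 counts came from aged replicate 2. The fitted log2 fold change was 3.00 (SE 2.40, edgeR adjusted p = 0.993), and it was 0.40 without aged replicate 2 and 5.88 without young replicate 3. Mmp2, a secreted gelatinase, was at 0.0695, 5.78 and 9.47 CPM in aged libraries, against 1.57, 0 and 2.90 CPM in young ones. Aged replicate 1 and young replicate 2 had 2 and 0 counts of it, so both ages held a library at the floor, and the fitted log2 fold change was 1.78 (SE 2.28, edgeR adjusted p = 0.993). It was 0.97 without aged replicate 3 and 2.70 without young replicate 3.

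Mmp12, the macrophage elastase, appeared in 1 library. It had 3, 705 and 0 counts in aged libraries, against 2, 0 and 1 counts in young ones, so 99.2% of its counts came from aged replicate 2, at 18.3 CPM. The gene failed the filter on low counts. With no filter its fitted log2 fold change was 7.37 (SE 3.46, edgeR adjusted p = 0.468), a value that rests on that library. Mmp12 lies on mm10 chromosome 9 from 7344381 to 7369499 and overlaps Mmp1b on the opposite strand, which had 0 counts in every library. Mmp19, a secreted protease of many tissues, had at most 3 counts in any library, at or under the floor at both ages, and no difference was detectable at this depth. On the opposite strand it overlaps Tmem198b, whose level was higher (up to 5.58 CPM in aged and 3.54 CPM in young libraries), and Gm47093 (up to 0.0347 and 0.961 CPM).

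Timp2, Mmp14 and Mmp12 each had their highest level in aged replicate 2, and their promoters are shown beside that of Tgfbi, the gene that varied least among the young libraries. Aged replicate 2 also had the most genes with at least 5 counts (12543, against 9875 to 11566 in the other libraries). Common regulation of the 3 genes was not tested. RefSeq (GRCm38.p6) gave a promoter for 6 of the 10 genes. The 250 bases before each RefSeq start site are printed in the direction of transcription, with capitals marking matches, on either strand, to 4 short motifs: GGGCGG (bound by Sp1), TGANTCA (bound by AP-1), GAGGAA (a core bound by PU.1, the macrophage lineage factor) and TATAAA (the TATA box).
Timp2, chr11:118355412-118355661, minus strand: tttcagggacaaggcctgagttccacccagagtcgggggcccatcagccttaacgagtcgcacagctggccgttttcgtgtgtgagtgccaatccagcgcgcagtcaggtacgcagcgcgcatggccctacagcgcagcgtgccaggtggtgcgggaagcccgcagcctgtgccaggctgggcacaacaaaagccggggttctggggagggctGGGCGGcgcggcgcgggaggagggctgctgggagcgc
Mmp14, chr14:54431348-54431597, plus strand: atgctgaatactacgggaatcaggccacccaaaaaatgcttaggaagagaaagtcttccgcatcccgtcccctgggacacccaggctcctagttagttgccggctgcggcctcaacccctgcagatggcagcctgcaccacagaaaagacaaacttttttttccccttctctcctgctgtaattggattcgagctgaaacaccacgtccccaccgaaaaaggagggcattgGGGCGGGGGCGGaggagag
Mmp12, chr9:7344147-7344396, plus strand: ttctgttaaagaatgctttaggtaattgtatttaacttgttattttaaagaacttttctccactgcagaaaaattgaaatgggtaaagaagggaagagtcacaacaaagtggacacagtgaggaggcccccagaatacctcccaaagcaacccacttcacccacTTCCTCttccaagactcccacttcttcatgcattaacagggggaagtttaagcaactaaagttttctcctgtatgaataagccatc
Tgfbi, chr13:56609336-56609585, plus strand: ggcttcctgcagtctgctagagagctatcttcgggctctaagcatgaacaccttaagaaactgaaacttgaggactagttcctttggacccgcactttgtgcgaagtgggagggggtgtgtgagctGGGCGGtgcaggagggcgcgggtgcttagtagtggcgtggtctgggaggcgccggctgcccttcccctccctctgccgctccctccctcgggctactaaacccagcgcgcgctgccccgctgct
The Sp1 motif stood once before Timp2 and Tgfbi and at 2 adjoining positions before Mmp14, starting 19 and 13 bases before the start site, and it is found in 32.7% of the 32851 promoters of the table. The PU.1 core stood once before Mmp12, on the opposite strand, and is found in 23.3% of promoters. The AP-1 and TATA motifs, found in 6.75% and 12.4% of promoters, were in none of these 4 windows, and no matches overlapped. Of the promoters not shown, that of Spp1 held 1 TATA motif and 1 PU.1 core, and that of Timp1 held 1 Sp1 motif. G and C made up 68.0% of the window before Timp2, 62.4% before Tgfbi, 55.2% before Mmp14 and 40.0% before Mmp12. RefSeq start sites differ from the GENCODE gene ends: at 118355411, that of Timp2 lies inside the GENCODE span, as does the whole window, and those of Tgfbi (56609586) and Mmp12 (7344397) lie inside their spans, which the windows partly overlap. These matches describe letters and were not tested as binding sites.

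Tgfbi, which encodes a secreted adhesion protein that binds collagens and integrins and was first found as a gene induced by TGF-beta, varied less among the young libraries than any other member that was tested, with 1.15-fold between the highest and the lowest, against 2.19-fold among the aged ones. It was at 375, 220 and 171 CPM in aged libraries, against 309, 357 and 337 CPM in young ones. The groups overlapped through aged replicate 1, the highest of all 6, while the other 2 aged libraries lay below every young one. The fitted log2 fold change was -0.39 (SE 0.36, edgeR adjusted p = 0.993), and without aged replicate 1 it was -0.77. Tgfbi lies on mm10 chromosome 13 from 56609523 to 56639562 and overlaps no other gene of the tables.

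On TPM, the order of the 2 leading genes differed between the ages. The ratio of Timp2 to Tgfbi within a library, which no scaling between libraries can change, was 1.15, 4.40 and 4.13 in aged libraries on TPM, against 0.935, 0.691 and 0.572 in young ones. Timp2 was thus above Tgfbi in all 3 aged libraries and below it in all 3 young ones (3.22 ± 1.81 in aged and 0.733 ± 0.185 in young libraries, SD, n = 3 each; two-sided exact permutation p = 0.1, the smallest this design allows). On counts, with no scaling for length, the ratio was 0.534, 1.80 and 1.70 in aged libraries, against 0.501, 0.387 and 0.290 in young ones, again without overlap. On counts Timp2 was below Tgfbi in aged replicate 1 too, so the order there depends on the length scaling. The ratio was chosen after the values were seen.

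Fn1 and Spp1 also scattered widely between libraries. Fn1 encodes fibronectin, the fibrous glycoprotein that cells grip through integrins. It was at 37.7, 5.47 and 47.1 CPM in aged libraries, against 2.82, 0.335 and 8.19 CPM in young ones. Aged replicates 1 and 3 were above every young library, but aged replicate 2 was below young replicate 3, so the groups overlapped on CPM. On TPM they did not overlap (4.02, 1.29 and 10.3 in aged, 0.453, 0.088 and 0.758 in young libraries), where 9.71% of the genes tested were higher in every aged library. The fitted log2 fold change was 2.99 (SE 1.42, unadjusted p = 0.0633, edgeR adjusted p = 0.892), and leaving out single libraries gave 2.46 (without young replicate 2) to 4.26 (without young replicate 3).

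The deposited mean length of Fn1 was 1792 to 4527 bases, while its longest protein-coding transcript in GENCODE M21 has 8315 bases. Shorter annotated transcripts thus held part of its estimated abundance, though not necessarily a like part of its reads, and its TPM is uncertain. Monocytes express Fn1 too, and their markers summed to 687, 396 and 296 CPM in aged libraries, against 759, 272 and 257 CPM in young ones, with the groups overlapping. Fibroblast markers, whose cells also make fibronectin, summed to 3.54 to 5.90 CPM in aged and 0.897 to 17.3 CPM in young libraries, with Col1a1 at 0.644 CPM or less in every library. Fn1 lies on mm10 chromosome 1 from 71585520 to 71653200 and overlaps the antisense gene Apol7d, which had 0 counts.

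Spp1 encodes osteopontin, a secreted phosphoprotein that binds integrins and Cd44 and is known in brain macrophages for its part in the response to injury. It was at 84.0, 15.5 and 46.4 CPM in aged libraries, against 96.0, 0.596 and 21.2 CPM in young ones. The highest and the lowest library were both young, 161-fold apart, while the aged libraries differed by 5.41-fold. The fitted log2 fold change was 0.31 (SE 1.26, edgeR adjusted p = 0.997), and its sign turned without young replicate 2 (-0.27) and without aged replicate 1 (-0.33). Spp1 lies on mm10 chromosome 5 from 104435118 to 104441050.

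Thbs1, which encodes thrombospondin, a glycoprotein of platelets and macrophages that can activate latent TGF-beta, had 0, 71 and 8 counts in aged libraries, against 69, 7 and 4 counts in young ones. Each age had 1 library well above the others, which were near or under the floor, and the gene was not tested. Platelet markers summed to 7.30, 26.6 and 24.2 CPM in aged libraries, against 1.22, 20.3 and 26.6 CPM in young ones, in the same order as Thbs1 in the aged libraries and in the opposite order in the young ones; their part in Thbs1 was not tested.

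**Figure D4:**
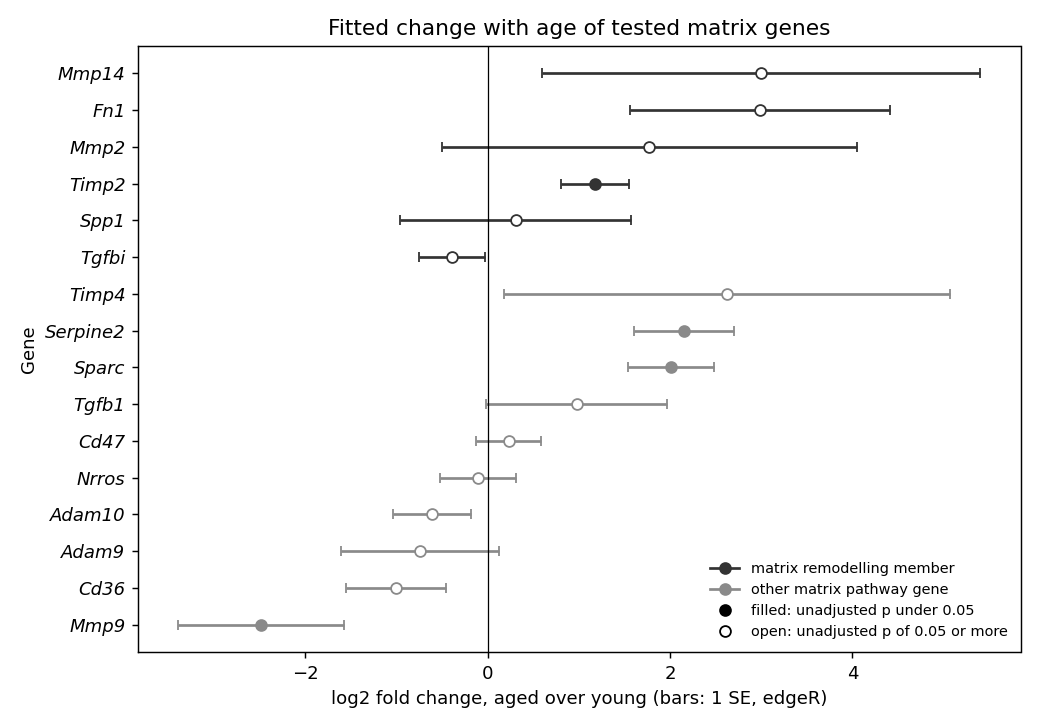
Fitted log2 fold change of aged over young libraries with 1 SE (edgeR quasi-likelihood fit, n = 3 each) for the 6 tested members (dark) and the named genes of the other matrix lists that were tested (grey), filled where the unadjusted p was under 0.05. Timp2 (1.18), Serpine2 (2.15), Sparc (2.01) and Mmp9 (-2.48) are filled, and none of the genes shown passed over all genes tested.

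The wider set of matrix genes held no call by edgeR's quasi-likelihood test. It held 88 genes in 7 lists of other proteases, inhibitors, matrix proteins, receptors and TGF-beta genes. Of these, 37 were tested, and 0 were called higher or lower by edgeR over all genes. Of the genes named below, Sparc and Serpine2 were called higher by the DESeq2 Wald test, which called 1.06% of all genes tested higher. How many of the 37 DESeq2 called is not given here. At an unadjusted p under 0.05 in edgeR, 2 of the 37 were higher and 1 was lower, counts close to what the shares over all genes tested (3.63% higher and 2.04% lower) would give. Their median log2 fold change was 0.28, against -0.02 over all genes tested. Among other metalloproteases 3 of 18 were tested (median -1.96), among ADAM and ADAMTS proteases 6 of 15 (-0.68) and in the plasminogen system 3 of 5 (1.23). Among other inhibitors 1 of 3 was tested, Timp4 (2.62, SE 2.45), with 89.7% of its counts from aged replicate 2. Among other matrix glycoproteins 8 of 22 were tested (1.98), among receptors 12 of 17 (0.30) and among TGF-beta and its latency proteins 4 of 8 (0.43).

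Sparc, a collagen-binding matrix protein, and Serpine2, an inhibitor of thrombin and plasminogen activators, were the 2 higher genes. Sparc was at 436, 1450 and 610 CPM in aged libraries, against 266, 180 and 172 CPM in young ones (log2 fold change 2.01, SE 0.47, edgeR adjusted p = 0.515). Serpine2 was at 102, 309 and 98.4 CPM in aged libraries, against 27.3, 39.4 and 47.7 CPM in young ones (log2 fold change 2.15, SE 0.55, edgeR adjusted p = 0.581). Neither overlapped between ages, as in the 7.54% of all genes tested that were higher in every aged library. As for Timp2, the highest library was aged replicate 2, and without it the log2 fold change was 1.34 for Sparc and 1.40 for Serpine2. As a percent of the summed microglia markers, a ratio chosen after its values were seen, Sparc was at 4.60 to 9.25% in aged and 2.28 to 4.16% in young libraries, and Serpine2 at 0.757 to 1.97% and 0.427 to 0.808%, with overlap. The part of microglia, astrocytes and oligodendrocytes in these levels was not tested. Both were called by the DESeq2 Wald test (adjusted p = 0.00403 for Sparc and 0.0213 for Serpine2).

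Mmp9, a gelatinase stored in neutrophil granules, was the lower gene, at 13.4, 13.8 and 2.16 CPM in aged libraries, against 59.8, 78.6 and 25.8 CPM in young ones (log2 fold change -2.48, SE 0.91, edgeR adjusted p = 0.756). Every aged library was below every young one, as in 7.19% of all genes tested. The neutrophil markers summed to 21554, 7968 and 3.71 CPM in aged libraries, against 37638, 11943 and 14428 CPM in young ones, and their part in Mmp9 was not tested. Without aged replicate 3 the log2 fold change of Mmp9 was -2.01 (edgeR adjusted p = 0.818).

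In the lists with no gene under that limit, the 2 most abundant members are given. The sheddase gene Adam10 was at 75.6 ± 20.0 CPM in aged and 116 ± 36.2 CPM in young libraries, and Adam9 at 32.5 ± 29.5 and 54.4 ± 28.2 CPM. The thrombospondin receptor Cd36 was at 188 ± 160 CPM in aged and 377 ± 73.7 CPM in young libraries, and Cd47, another thrombospondin receptor, at 282 ± 107 and 240 ± 48.9 CPM. Nrros, which tethers latent TGF-beta on microglia and macrophages, was at 103 ± 40.8 CPM in aged and 111 ± 15.1 CPM in young libraries, and Tgfb1 at 26.6 ± 16.4 and 13.5 ± 7.53 CPM (SD, n = 3 each). Timp4 was at 6.32 CPM in aged replicate 2 and at 0.521 CPM or less in every other library. None of these passed over all genes tested (edgeR adjusted p of 0.929 or more), and those groups overlapped. Timp3, the matrix-bound inhibitor, was not tested and had 1140 counts in aged replicate 3, against 4 to 33 counts in every other library.

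The genes closest in pattern to Timp2, the member with the highest mean TPM, were Ctsz, Sgce and C1qb. Closeness was the root mean square difference of centred log2 CPM over the 6 libraries, among the 2188 other genes that averaged 50 CPM or more, and it was 0.12 for Ctsz, 0.17 for Sgce and 0.18 for C1qb. Ctsz, a lysosomal cathepsin, was at 499, 1159 and 929 CPM in aged libraries, against 411, 379 and 298 CPM in young ones. Sgce, a sarcoglycan of the cell membrane, was at 90.0, 176 and 180 CPM in aged libraries, against 75.6, 72.6 and 55.2 CPM in young ones. C1qb, a chain of complement C1q, was at 4106, 11191 and 8276 CPM in aged libraries, against 3608, 3816 and 2706 CPM in young ones. In all 3 the aged libraries were above the young ones with aged replicate 1 lowest of the aged, as for Timp2. This likeness follows from how the 3 genes were chosen and is no separate finding, and these values describe few libraries.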

How the data were processed

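RNA of sorted CAMs (approximately 500 pg per library) was made into cDNA with a low-input kit that does not mark strand, amplified over 13 PCR cycles and sequenced as single reads, per the labels' protocols. The submitters' processing notes name bcl2fastq 2.20, FastQC, fastp, DRAGEN, Picard and build mm10; which tool counted reads, and on which annotation, is not given in the sources used here. Deposited tables hold an estimated count per gene, not scaled for depth, and TPM, scaled by the authors for effective length and depth, per the file headers. Of the 35598 identifiers, 35513 matched GENCODE M21 without version.

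Estimated counts were rounded to whole numbers and fitted over all genes with edgeR 4.0.16 in R 4.3.3 (filterByExpr, TMM, robust quasi-likelihood F test, two-sided, no covariate, 10661 genes tested), with Benjamini-Hochberg adjustment over all of them. Calls were made at an adjusted p under 0.05. The SE was derived from F and the fold change. Levels are TMM-normalized CPM unless TPM is named. The script was tested on simulated data. DESeq2 1.42.0, limma 3.58.1, other scalings and filters, a replicate block and the omission of each library were alternatives. Named genes of other lists were those with an unadjusted p under 0.05, up to 3 a list, or otherwise the 2 of highest level. Members, lists and tests were chosen with earlier results of these data known. Intervals and floors cover counting error only, since reads amplified without molecular identifiers are not independent molecules. Overlapping genes on opposite strands cannot be told apart.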

Additional observations from a re-analysis of the deposited data

How the results depend on the processing

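No member was called under any alternative that tested it. Over all genes, edgeR called 1 higher and 0 lower. DESeq2 called 113 and 41, edgeR without a filter on low counts 51 and 11, edgeR on genes averaging 50 CPM or more 19 and 6, and limma-voom 0 and 0. Leaving out a library gave 0 (aged replicate 2 or 3) to 2 (young replicate 3) higher and 0 to 1 (aged replicate 1) lower. The lowest adjusted p of Timp2 was 0.128, on genes averaging 50 CPM or more, and the highest 0.914, with a replicate block. Spp1 turned sign when single libraries were left out (log2 fold changes of -0.33 to 2.16). Among other genes, Timp4 turned sign in limma-voom (-0.85) and with a replicate block (-1.71) and ran from -6.29 to 3.21 without single libraries; Cd47 ran from -0.12 to 0.41. Nrros was at 0.0042 on total counts, 0.33 on log2(TPM + 1) and -0.47 to 0.11 without single libraries. The cause of these turns was not tested. Sparc and Serpine2 were called in DESeq2 and with no filter. On log2(TPM + 1) the median of all genes was 0.22 and Timp2 was at 1.70. Fn1 (1.85), Mmp14 (0.91) and Mmp2 (0.76) were below their values on counts there, where the added 1 shrinks differences at low TPM. As log2 ratios of mean TPM with nothing added, Fn1 (3.58) and Mmp14 (3.68) were above their values on counts and Mmp2 (1.68) was below. Mmp12 was tested with no filter and on TPM, Mmp19 with no filter, Thbs1 with no filter and when 1 of 4 libraries was omitted (aged replicate 1 or 3, young replicate 2 or 3), and Timp1 under none. Replicate numbers did not pair libraries (correlation of same-numbered deviations from -0.0257 to 0.0220, and not every library correlated best with its own number), and the replicate block left 1 gene called higher and 0 lower. With 3 libraries an age, and some libraries at or near the floor of 3 counts at both ages, differences of Mmp2, Mmp14, Thbs1 and Mmp12 were not resolvable.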

Other observations

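Some matrix genes outside the naming rule were singled out after their values were seen, so their direction describes the choice and not matrix genes as a set. Mmp13, a collagenase, had 395, 415 and 0 counts in aged libraries, against 1, 1 and 2 counts in young ones, so it stood in 2 of 3 aged libraries and in no young one above the floor. Cd44, a receptor for hyaluronan and osteopontin, was at 18.2, 6.97 and 46.0 CPM in aged libraries, against 3.36, 0 and 0.215 CPM in young ones. It was higher in every aged library, as were 7.54% of all genes tested (log2 fold change 4.31, SE 2.03, edgeR adjusted p = 0.892). Vcan, the proteoglycan versican, had 520 counts in aged replicate 1 and at most 6 in any other library. Itgb3, an integrin chain that binds fibronectin and osteopontin, was at 11.2 CPM in aged replicate 2 and 1.42 CPM in aged replicate 1, against 0.288 CPM or less in every other library.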
